A study of Mus musculus with 8 samples.

Results

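The introns described here carry the known-exon mark in the deposited intron tables of a mouse monocyte series. An intron was taken when all 8 tables listed it, the 6 tables other than the knockout marked it as holding a known exon, the knockout tables gave it no antisense mark, and every library had at least 10 reads over its boundaries and splice junctions. This left 987 introns in 800 genes, of 204362 introns listed in all 8 tables. Of 1793 introns with the mark, 806 had too few reads in at least 1 library. In the lowest library, 20 of the introns left out had 8 or 9 reads and 21 of those kept had 10 or 11. A gene held 1 of these introns in 663 cases and up to 7 at most, and 58 of the introns overlapped another of the set and so shared reads with it.

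Polyadenylated RNA was sequenced in 8 libraries of bone marrow cells, as the source names have it, while the cell type tag calls them a monocytic cell line. The groups were MDP (monocyte-dendritic cell progenitors, wild type, 1 library), cMoP (common monocyte progenitors, 2 libraries), Ly6Chi monocytes (2 libraries), Ly6Clo monocytes (wild type, 1 library) and monocytes of the Ly6Chi type in which Upf2 was knocked out (2 libraries). The cMoP and Ly6Chi libraries are tagged wild type and described as FL_FL. All but the knockout were untreated; ages, the Cre driver and whether replicates came from separate animals are not given in the sources used here, so the spread behind each p-value is that among these libraries and may be technical. Upf2 is a protein needed for nonsense-mediated decay, the pathway that degrades transcripts with premature stop codons. Its expression was 20.4 and 22.4 TPM (relative transcript abundance) in the knockout libraries and 20.2 and 18.2 TPM in the Ly6Chi libraries. Reads spliced across its first 3 introns came to 25 and 59 for the knockout libraries and 173 and 153 for the Ly6Chi libraries, while the other 20 introns had 1569 and 1685 against 1568 and 1453; these first 3 introns were singled out after their values were seen. Markers followed the labels in part: Mpo was at 12416 and 10338 TPM in cMoP against 77.2 to 97.3 TPM in Ly6Chi, and Treml4 was at 659 TPM in Ly6Clo against 0.18 to 20.1 TPM elsewhere. Among MDP markers, Flt3, Kit and Cd34 were highest in MDP. Cx3cr1 and Csf1r were instead highest in Ly6Clo, at 605 and 1629 TPM against 48.6 and 163 TPM in MDP. Ly6c2 was at 4875 and 3518 TPM in cMoP and 3439 and 4057 TPM in Ly6Chi. T and NK cell markers summed to at most 1.98 TPM in any library, and the 5 neutrophil markers to between 21.0 TPM (cMoP replicate 2) and 1142 TPM (Ly6Clo). B and plasma cell markers summed to between 266 TPM (cMoP replicate 2) and 772 TPM (Ly6Clo), mostly Ighm.

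An intron is retained when it stays in the mature RNA. Retention is known in blood cell differentiation, where a retained intron can hold a transcript in the nucleus or bring in a stop codon that makes it a target of nonsense-mediated decay. A stretch of sequence can also be an intron in 1 transcript of a gene and part of an exon in another, and for short reads both cases look alike: a read across the intron's boundary counts as unspliced either way.

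The mark did not mean that an exon lies within the intron. In the GENCODE annotation (release M21, GRCm38, the mm10 build), 956 of the 987 introns lay wholly inside an annotated exon of their own gene, and 39 contained a whole exon. They are therefore called exon-overlapping introns below. Inside exons of other noncoding transcripts lay 217, inside exons with a start or stop codon 213, inside 5′ UTR exons 173, inside 3′ UTR exons 129, inside coding exons 102, inside exons of transcripts annotated for nonsense-mediated decay 80 and inside exons of transcripts annotated as retained introns 42. A further 11 overlapped an exon in part and 20 overlapped none of their own gene.

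A few introns inside coding exons are printed here as examples of protein-coding sequence that begins and ends like an intron. The following 7, printed 5′ to 3′ from GENCODE transcripts, belong to genes described below, with the first and last 2 bases in capitals.
Hnrnpl, chr7:28818533-28818643, + strand: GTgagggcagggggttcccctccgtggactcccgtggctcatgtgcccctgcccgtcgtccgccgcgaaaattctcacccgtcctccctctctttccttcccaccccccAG
Chd4, chr6:125120386-125120469, + strand: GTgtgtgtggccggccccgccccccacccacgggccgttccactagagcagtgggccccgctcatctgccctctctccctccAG
Inpp5d, chr1:87715094-87715276, + strand: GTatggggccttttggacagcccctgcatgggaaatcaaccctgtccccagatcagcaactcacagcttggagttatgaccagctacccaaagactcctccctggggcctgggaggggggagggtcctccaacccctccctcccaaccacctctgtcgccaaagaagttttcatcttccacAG
Med12, chrX:101294013-101294087, + strand: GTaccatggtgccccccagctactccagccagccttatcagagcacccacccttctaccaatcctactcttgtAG
Tap1, chr17:34192858-34192941, + strand: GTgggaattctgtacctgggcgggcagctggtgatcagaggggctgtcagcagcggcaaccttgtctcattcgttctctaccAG
Bcl2l11, chr2:128128757-128128924, + strand: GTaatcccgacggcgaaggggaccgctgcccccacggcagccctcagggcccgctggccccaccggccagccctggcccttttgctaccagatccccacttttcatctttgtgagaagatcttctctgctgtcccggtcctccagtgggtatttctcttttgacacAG
Mgl2, chr11:70136777-70136920, + strand: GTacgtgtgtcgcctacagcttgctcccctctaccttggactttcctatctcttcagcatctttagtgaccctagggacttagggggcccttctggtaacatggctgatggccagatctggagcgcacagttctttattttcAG
All 7 begin with GT and end in AG. Each is a multiple of 3 bases long, so that splicing it out keeps the reading frame. These traits are not shared by all 102 introns inside coding exons, of which 88 have GT-AG ends and 69 are a multiple of 3 long.

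Among the 956 introns inside exons, 898 had GT-AG ends, 27 had GC-AG ends and 31 had other ends. The 31 introns with other ends had a median mean retention ratio of 1.00, and 21 of them had no read spliced exactly from end to end in any library. At least 5 bases were repeated at both ends in 11 of these 31 introns (35.5%), in 9 of the 27 with GC-AG ends (33.3%) and in 71 of the 898 with GT-AG ends (7.91%). Length was a multiple of 3 in 69 of the 102 introns inside coding exons (67.7%), and in 27.5% to 35.7% of those in 3′ UTR, 5′ UTR, start or stop codon, decay, retained-intron and other noncoding exons. Over 75720 clean introns, which carry no mark in any table and passed the same read minimum, it was a multiple of 3 in 33.4%. Exon-overlapping introns were short, with a median of 253 bases against 1469 bases for clean introns.

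The retention ratio is the deposited measure of how much of an intron stays in the RNA, from 0 (all spliced) to 1 (all kept): read depth in the intron divided by that depth plus the larger spliced count at its ends. Where the depth was under 1, the fraction of the intron covered by reads took the place of the depth. In exon-overlapping introns these reads include those from transcripts that use the stretch as an exon. Inside coding exons the median of the mean ratio over the 8 libraries was 0.884 (quartiles 0.421 and 0.995), and 76 of 102 had a mean of at least 0.5. Inside 3′ UTR exons it was 0.847, and 80 of 129 had a mean of at least 0.5. It was 0.199 in 5′ UTR exons, 0.120 in exons with a start or stop codon, 0.0792 in decay transcripts, 0.0571 in retained-intron transcripts and 0.0411 in other noncoding transcripts. The 3′ UTR group was itself mixed: 67 introns spliced within the 3′ UTR had a median of 0.878 and 35 spliced in noncoding transcripts only had 0.970, against 0.0716 in 24 that other transcripts splice as coding introns.

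**Figure D1:**
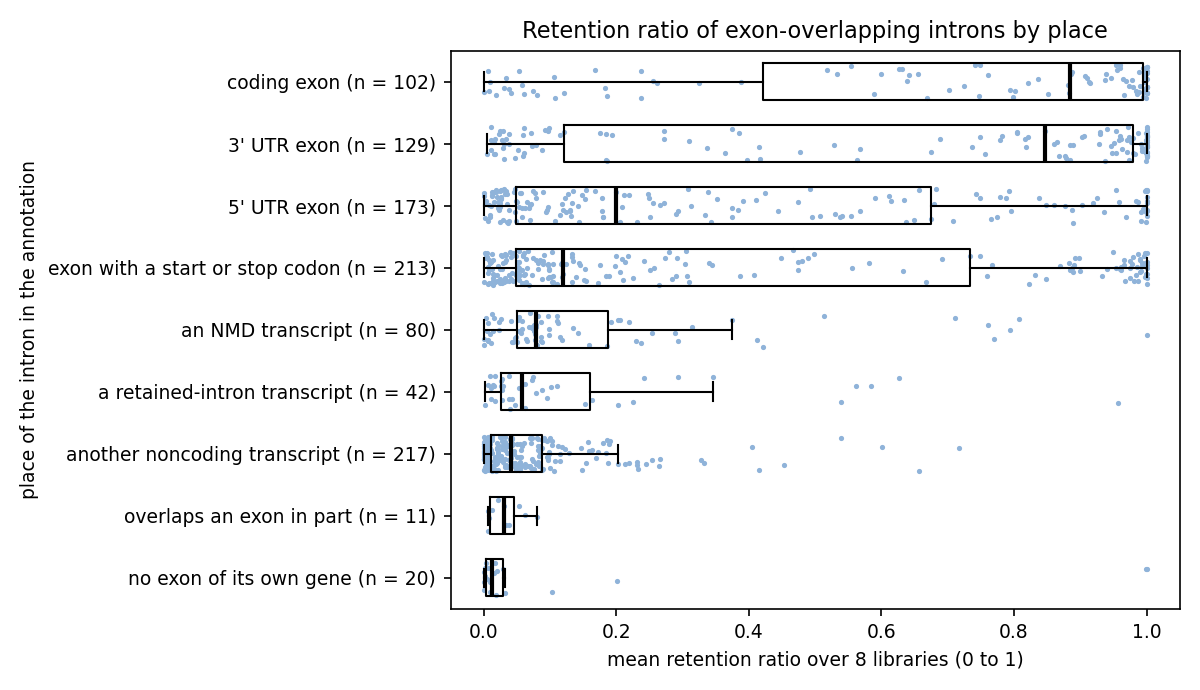
Mean retention ratio over 8 libraries (x axis, 0 to 1) of each exon-overlapping intron (points) by its place in the annotation (y axis), with boxes for quartiles, a thick line for the median and whiskers to the farthest value within 1.5 box lengths. Introns in coding and 3′ UTR exons have medians of 0.884 and 0.847, while those in other noncoding transcripts have a median of 0.0411.

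Median ratios inside coding exons ran from 0.860 (cMoP replicate 1) to 0.907 (knockout replicate 1) and inside 3′ UTR exons from 0.820 to 0.855. Inside decay transcripts they ran from 0.0324 (cMoP replicate 2) to 0.124 (Ly6Clo), and inside other noncoding transcripts from 0.0136 to 0.0512 in the same 2 libraries.

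In every library, a retention ratio of at least 0.1 was more common in exon-overlapping introns than in clean introns. The share that reached it is called the retained share below. A ratio of at least 0.1 was reached by 53.4% in MDP, 49.6% and 41.5% in the cMoP pair, 53.4% and 53.8% in the Ly6Chi pair, 59.8% in the Ly6Clo library and 48.5% and 49.4% in the knockout pair. Clean introns reached it in 1.72% (cMoP replicate 2) to 8.27% (Ly6Clo). The difference was 46.1 ± 3.30 percentage points (SD, n = 8 libraries), above 0 in 8 of 8. An exact two-sided sign-flip permutation test gave p = 0.00781, the smallest that 8 libraries allow. Because of how the sets were chosen, reads from exons that cover the stretch raise the ratio of exon-overlapping introns. All libraries also score the same introns. The test therefore cannot tell retention from use of the stretch as an exon. Within length bins the difference was of the same order. Among introns of at most 100 bases, 44.1% to 58.1% of 179 exon-overlapping introns reached a ratio of 0.1, against 3.77% to 12.9% of 3709 clean introns. Above 650 bases, 37.9% to 57.3% of 248 did, against 1.15% to 7.03% of 54116. Some spliced reads touched an end of the intron but joined it to another site. They made up 18.7% in exon-overlapping introns and 8.79% in clean introns (means of 8 libraries). The difference was 9.94 ± 0.81 percentage points (SD, n = 8, exact permutation p = 0.00781). The known-exon mark that separates the sets goes with other annotated forms, and all libraries score the same introns. The test therefore cannot show a difference beyond that choice of sets. Reads were summed over introns, so introns with many reads weigh most.

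**Figure D2:**
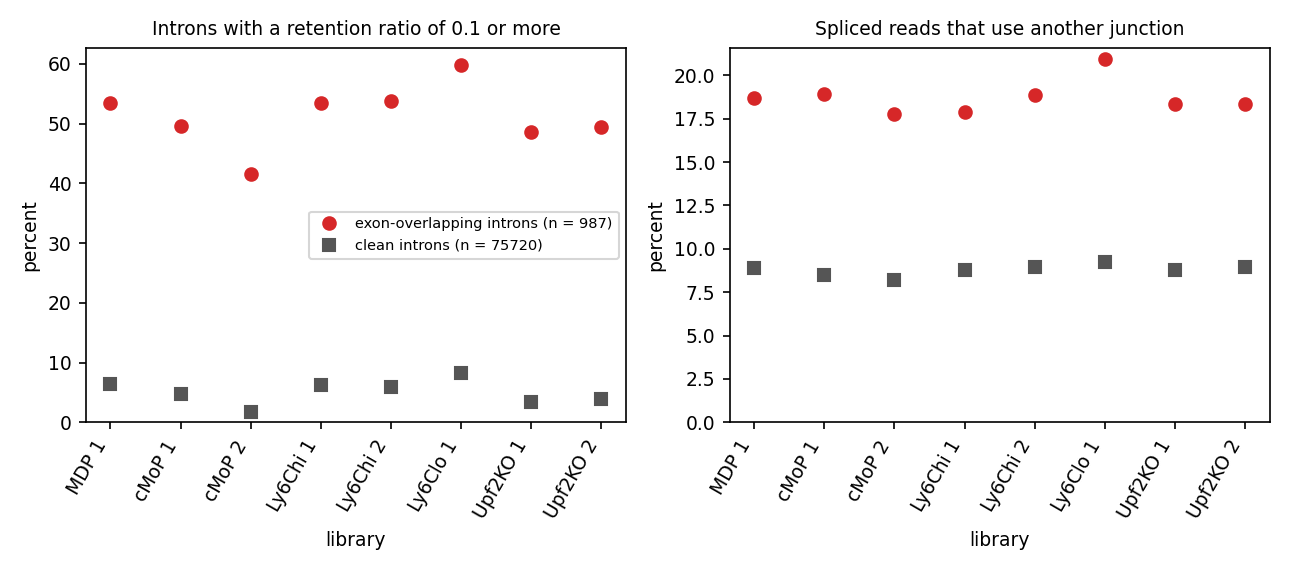
Percent of introns with a retention ratio of 0.1 or more (left) and percent of spliced reads that use another junction (right) in each library, for 987 exon-overlapping introns (circles) and 75720 clean introns (squares). The circles lie above the squares in all 8 libraries in both panels.

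Between groups, the retained share of exon-overlapping introns was 53.6% ± 0.29 in Ly6Chi and 45.6% ± 5.73 in cMoP (SD, n = 2 each), and 49.0% ± 0.65 in the knockout (n = 2). The knockout libraries lay below both Ly6Chi libraries and Ly6Clo above them. With 2 libraries against 2, or 2 against 1, an exact permutation test cannot go below p = 0.333, which is what the comparisons of Ly6Chi with cMoP, Ly6Clo and the knockout gave.

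Over the exon-overlapping introns, boundary reads per 100 spliced reads were lowest in cMoP replicate 2 (36.8) and highest in Ly6Clo (89.1), with 45.1 to 71.2 in the other 6 libraries. Spliced reads also leaned toward the 3′ end of genes by different amounts: the median log2 ratio of exact junction reads in the last to the first of 3 equal parts of the introns, over 3432 genes, was 1.05 in cMoP replicate 2, 1.00 in knockout replicate 1, 0.72 and 0.71 in knockout replicate 2 and cMoP replicate 1, and 0.39 to 0.47 in MDP, Ly6Chi and Ly6Clo. Retained shares were 41.5% to 49.6% in both cMoP and both knockout libraries and 53.4% to 59.8% in the others, so the lean moved with the groups compared, and its part in the results below was not tested. Exact junction reads in the tables ranged from 28726135 to 37591021 per library, and the median exon-overlapping intron had 185 to 230 boundary and spliced reads.

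In 24 introns inside coding exons, both forms could be measured in every library, with at least 10 exactly spliced and 10 boundary reads in each. This set was chosen by depth after the values were seen. Of the 24, 19 were a multiple of 3 long, and mean ratios ran from 0.034 to 0.999, with 11 at 0.5 or above and 5 under 0.1. None passed the retention test described below in any of the 4 comparisons.

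Hnrnpl, a splicing regulator, removed its 111-base stretch from most transcripts: ratios stood at 0.230 in MDP, 0.210 and 0.167 in the cMoP pair, 0.168 and 0.164 in the Ly6Chi pair, 0.234 in the Ly6Clo library and 0.156 and 0.163 in the knockout pair. All 8 values lay between 0.156 and 0.234. Chd4, the ATPase of the NuRD chromatin remodelling complex, had 0.0835 in MDP, 0.0874 and 0.0417 in the cMoP pair, 0.0680 and 0.101 in the Ly6Chi pair, 0.106 in the Ly6Clo library and 0.0681 and 0.0867 in the knockout pair for its 84-base stretch. The spliced form prevailed in every library. Inpp5d, the phosphatase SHIP1 that restrains phosphoinositide signalling in myeloid cells, mostly kept its 183-base stretch, at 0.774 in MDP, 0.755 and 0.715 in the cMoP pair, 0.840 and 0.818 in the Ly6Chi pair, 0.869 in the Ly6Clo library and 0.815 and 0.800 in the knockout pair. The Ly6Chi values lay above both cMoP values, yet the change did not pass (log2 change relative to the median of all introns 0.46 ± 0.37 SE, edgeR adjusted p = 0.492).

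Med12, a subunit of the Mediator kinase module, kept its 75-base stretch at ratios of 0.722 to 0.857 over the 8 libraries. Tap1, a subunit of the transporter that feeds peptides to class I MHC, kept its 84-base stretch at 0.948 to 0.975. In Bcl2l11, which encodes the apoptosis inducer Bim and is known for protein forms of several lengths, ratios stood at 0.441 in MDP, 0.533 and 0.665 in the cMoP pair, 0.594 and 0.661 in the Ly6Chi pair, 0.582 in the Ly6Clo library and 0.571 and 0.667 in the knockout pair. Both forms were therefore present in all groups, and the groups overlapped. In Mgl2, a C-type lectin, the ratio was 0.582 in MDP and 0.171 to 0.319 in the other 7 libraries, where expression was 1.40 TPM in MDP and up to 100.4 TPM in Ly6Clo; the change from MDP to cMoP did not pass (log2 relative to the median of all introns −1.92 ± 0.89 SE, edgeR adjusted p = 0.702). Fosb, whose 140-base intron gives the short protein ΔFosB when spliced, had ratios of 0.909 to 0.983. Bcl2l11, Mgl2 and Fosb were chosen after their values were seen. Some of their ratios rest on few reads. Mgl2 had 12 boundary and 5 spliced reads in MDP, and 4 and 6 in Ly6Chi replicate 1. Bcl2l11 had 6 spliced reads in cMoP replicate 2, and Fosb had 3 in MDP and 2 in Ly6Clo.

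Mt1, a metallothionein that binds zinc and copper, had low ratios in the progenitors and higher ones in the monocytes: 0.0115 in MDP, 0.0586 and 0.0331 in the cMoP pair, 0.272 and 0.135 in the Ly6Chi pair, 0.107 in the Ly6Clo library and 0.0923 and 0.137 in the knockout pair. Both Ly6Chi values exceeded both cMoP values, with a log2 change of 1.64 ± 0.44 SE relative to the median of all introns and an edgeR adjusted p of 0.0752, short of the threshold. Expression of Mt1 was 179 and 307 TPM in cMoP and 27.6 and 54.0 TPM in Ly6Chi. Actb, the cytoskeletal actin, was at 0.999 in all 8 libraries, with 280 exactly spliced reads in all. Each library had 15 to 61 of these reads beside 24205 to 83237 boundary reads. The Actb stretch has GC-AG ends and 8 bases repeated at both ends. Whether the exact reads come from a spliced form was not tested.

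**Figure D3:**
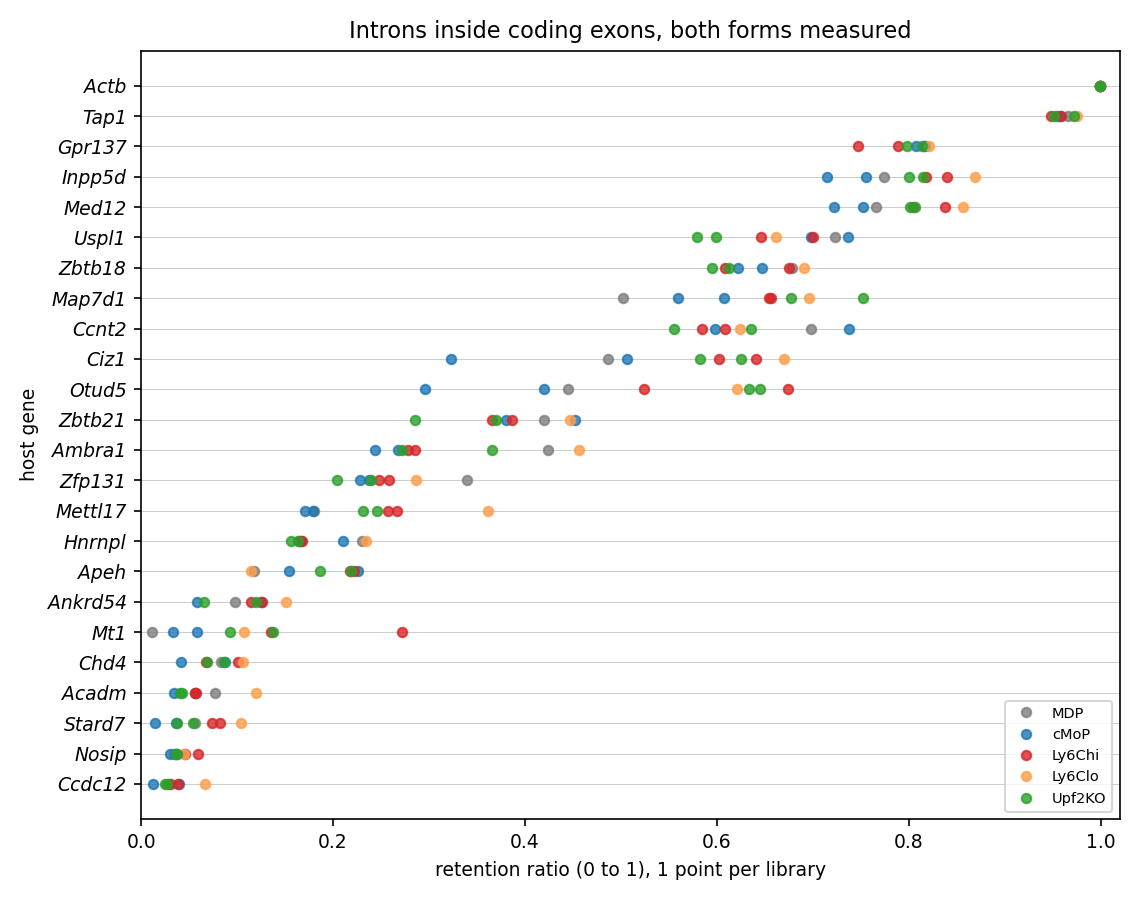
Retention ratio (x axis, 0 to 1) of the 24 introns inside coding exons with both forms measured, 1 point per library coloured by group, with host genes on the y axis in order of their mean. Ratios span 0.034 to 0.999 between the means of the genes.

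Retention was then compared between groups with edgeR's quasi-likelihood test of boundary reads relative to spliced reads, over all 95786 introns with the read minimum, with Benjamini-Hochberg adjustment and a threshold of 0.05. Log2 changes are given relative to the median of all introns tested, which moved by −0.30 in cMoP against MDP, 0.33 in Ly6Chi against cMoP, 0.09 in Ly6Clo against Ly6Chi and −0.24 in the knockout against Ly6Chi; p-values are for the unshifted change. Comparisons that share a group share its libraries.

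From cMoP to Ly6Chi, 6 exon-overlapping introns passed (0.608% of 987), where 0.0793% of all introns did. Higher in Ly6Chi were 3 (all introns: 0.047%), of which 2 overlap in Luc7l3, an RNA-binding protein associated with U1 snRNP, and the other lies in Fubp1, a single-strand nucleic acid binding protein. Lower in Ly6Chi were 3 (all introns: 0.0324%), in Apoe, Rpl38 and Rpl27. Apoe, the lipid carrier of lipoproteins and macrophages, has a 150-base intron inside a 5′ UTR exon (chr7:19698254-19698403) with ratios of 0.312 in MDP, 0.256 and 0.307 in the cMoP pair, 0.0128 and 0.0113 in the Ly6Chi pair, 0.00553 in the Ly6Clo library and 0.0144 and 0.0249 in the knockout pair. The MDP and cMoP values lay far above all others, and Apoe fell by 4.71 ± 0.36 (log2 relative to the median, SE, adjusted p = 2.03e-08). Apoe expression rose over the same samples, from 14.4 and 8.51 TPM in cMoP to 728 and 857 TPM in Ly6Chi. The cMoP values rest on 51 and 43 boundary reads, and Ly6Chi had 118 and 157. Of the spliced reads at the ends of the Apoe intron, 77.1% to 99.2% joined them to other sites. Its exact junction had 7 and 4 reads in cMoP and 16 and 14 in Ly6Chi. The fall is therefore relative to spliced reads that mostly use other junctions.

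In Luc7l3, the 1348-base intron with a start or stop codon in its exon had ratios of 0.329 in MDP, 0.218 and 0.0476 in the cMoP pair, 0.431 and 0.424 in the Ly6Chi pair, 0.551 in the Ly6Clo library and 0.204 and 0.222 in the knockout pair. Both Ly6Chi values lay above the cMoP and knockout values, and the rise over cMoP was 2.24 ± 0.52 (adjusted p = 0.0398). Of the spliced reads at its ends, 81.8% to 91.1% joined them to other sites. Fubp1 had ratios of 0.0436 in MDP, 0.0202 and 0.00063 in the cMoP pair, 0.0305 and 0.0484 in the Ly6Chi pair, 0.107 in the Ly6Clo library and 0.00054 and 0.00778 in the knockout pair, a rise from cMoP to Ly6Chi of 2.46 ± 0.58 (adjusted p = 0.0490). Its exact junction had 3 reads over all libraries, so the spliced reads that enter its test join its ends to other sites. In Rpl27 and Rpl38, ribosomal proteins, 1 boundary had less than 0.25 of the reads of the other (0.049 and 0), so that reads crossed chiefly 1 end.

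These calls rested on few libraries, and their number changed strongly when 1 library was left out, as did the share of all introns that passed. Without Ly6Chi replicate 1 or 2, or without knockout replicate 1 or 2, 1 intron passed; without cMoP replicate 1, 224 passed, 207 higher and 17 lower in Ly6Chi, when 10.2% of all introns tested passed. Apoe passed under all 14 alternatives run.

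**Figure D4:**
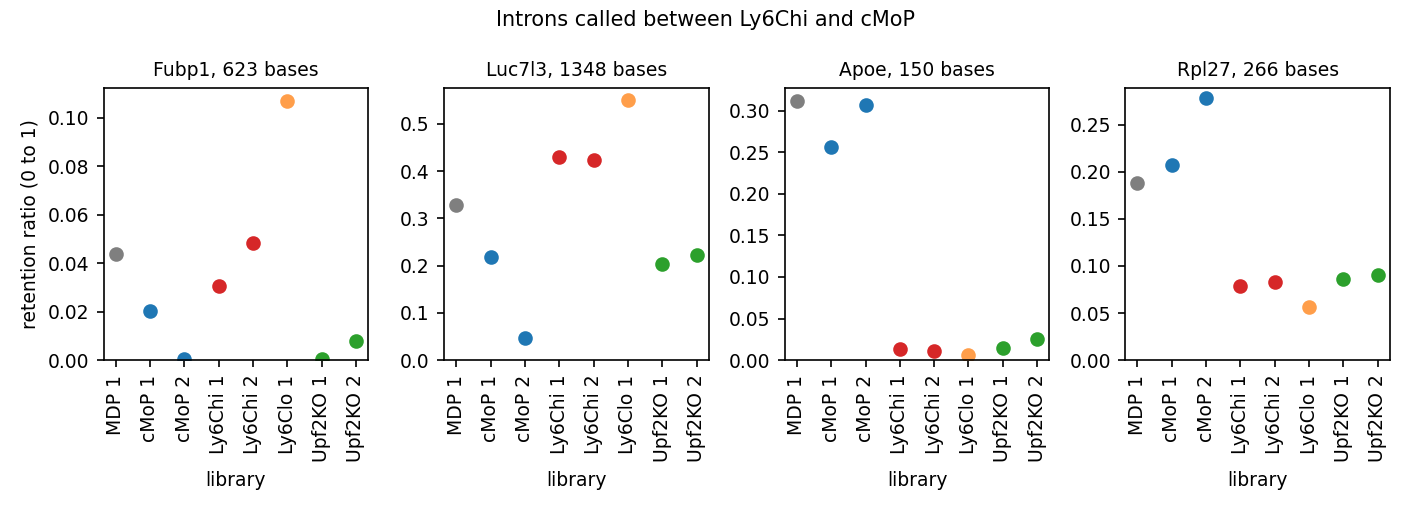
Retention ratio (y axis, 0 to 1) in each of the 8 libraries (x axis, coloured by group) for introns in Fubp1, Luc7l3, Apoe and Rpl27 that passed between Ly6Chi and cMoP. In Apoe the MDP and cMoP values (0.256 to 0.312) exceed all others (0.00553 to 0.0249).

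In the knockout against Ly6Chi, 1 exon-overlapping intron passed, and 0.204% of all introns did. It was the Fubp1 intron described above, which fell by 2.89 ± 0.66 (log2 relative to the median, SE, edgeR adjusted p = 0.0308). Its boundary reads came to 4 and 7 for the knockout and 38 and 33 for Ly6Chi. No exon-overlapping intron passed without any 1 of the Ly6Chi or knockout libraries, while 31 and 33 passed without cMoP replicate 1 or 2, of which 29 and 30 were lower in the knockout, when 1.59% and 1.61% of all introns passed. Next by p-value, and not passing, were a 378-base intron in Srsf1, a splicing factor that regulates its own transcript (2.35 ± 0.52, edgeR adjusted p = 0.117), and 1 in Iws1, a transcription elongation factor (−3.00 ± 0.88, edgeR adjusted p = 0.232). The Srsf1 ratios were 0.980 and 0.973 in Ly6Chi and 0.992 and 0.996 in the knockout, on 5 and 3 spliced reads in the knockout. A 196-base intron of Srsf1 had lower ratios in the knockout, 0.0982 and 0.0788 against 0.156 and 0.164. The Iws1 intron had 1 exact read in all libraries.

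In cMoP against MDP no exon-overlapping intron passed with edgeR, where 0.00313% of all introns did, and DESeq2 called 2. An unadjusted p under 0.05 occurred in 83 (8.41%), and in 6.77% of all introns. The 3 smallest p-values belonged to Hint1, a nucleotide hydrolase (−1.98 ± 0.45, edgeR adjusted p = 0.276), Cpsf6, a factor of mRNA 3′ end cleavage (−2.79 ± 0.65, adjusted p = 0.360), and Fos, an immediate early transcription factor (−1.52 ± 0.44, adjusted p = 0.532). In Ly6Clo against Ly6Chi none passed with edgeR, where 0.00835% of all introns did, and DESeq2 called 1. An unadjusted p under 0.05 occurred in 61 (6.18%), and in 4.17% of all introns. The smallest p-values belonged to Pqlc1 (4.22 ± 0.89, edgeR adjusted p = 0.204), Cpsf6 (2.42 ± 0.61, adjusted p = 0.568) and Fos (1.68 ± 0.44, adjusted p = 0.568). Cpsf6 ratios were 0.108 in MDP, 0.0231 and 0.00394 in the cMoP pair, 0.0553 and 0.0389 in the Ly6Chi pair, 0.224 in the Ly6Clo library and 0.0066 and 0.0155 in the knockout pair. MDP and Ly6Clo, with 1 library each, were the highest. Most spliced reads in these tests joined the ends to other sites: 86.0% to 98.4% in Cpsf6, 99.7% to 100% in Fos and 63.0% to 97.1% in Pqlc1. Without cMoP replicate 1, 137 exon-overlapping introns passed in cMoP against MDP, 2 higher and 135 lower in cMoP, and 21 in Ly6Clo against Ly6Chi, all higher in Ly6Clo, when 6.72% and 0.688% of all introns passed. Without cMoP replicate 2, 3 and 21 did, against 0.0583% and 0.696% of all introns.

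Scaling boundary and spliced reads apart raised the calls. Then 8 exon-overlapping introns passed in cMoP against MDP (all introns: 0.123%), 33 in Ly6Chi against cMoP (0.665%), 3 in Ly6Clo against Ly6Chi (0.137%) and 7 in the knockout against Ly6Chi (0.687%).

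Shifts of the whole set differed by place. In Ly6Chi against cMoP the median change relative to all introns was 0.46 in decay transcripts, where 60 of 80 introns lay above the median of all introns, and 0.34 in other noncoding transcripts, where 139 of 217 did. In coding exons it was 0.01, and 51 of 102 lay above. In cMoP against MDP the same places stood at −0.35, −0.32 and −0.06, but this comparison shares the cMoP libraries. In Ly6Clo against Ly6Chi, decay transcripts stood at 0.14, with 56 of 80 above, and coding exons at 0.22, with 68 of 102 above. In the knockout against Ly6Chi, decay transcripts stood at −0.15 (40.0% above) and coding exons at 0.17 (60.8% above). Single libraries moved several of these medians. Without cMoP replicate 1, coding exons stood at −0.26 in Ly6Chi against cMoP, with 40 of 102 above, and at 0.20 in cMoP against MDP. Without cMoP replicate 2, other noncoding transcripts stood at 0.17 in Ly6Chi against cMoP and decay transcripts at −0.13 in cMoP against MDP. Decay transcripts in Ly6Clo against Ly6Chi stood at 0.07 without Ly6Chi replicate 2, with 41 of 80 above. In the knockout against Ly6Chi, coding exons stood at 0.09 without Ly6Chi replicate 1 or knockout replicate 1 and at 0.11 without Ly6Chi replicate 2, and decay transcripts at −0.08 without knockout replicate 1.

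Over all 987 introns the medians relative to all introns were −0.13 in cMoP against MDP, 0.15 in Ly6Chi against cMoP, 0.19 in Ly6Clo against Ly6Chi and 0.03 in the knockout against Ly6Chi. Without cMoP replicate 1 the first 2 were −0.05 and 0.03. The knockout median was −0.020 without Ly6Chi replicate 1, −0.025 without Ly6Chi replicate 2 and −0.03 with no filter per library, so its direction was not stable.

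**Figure D5:**
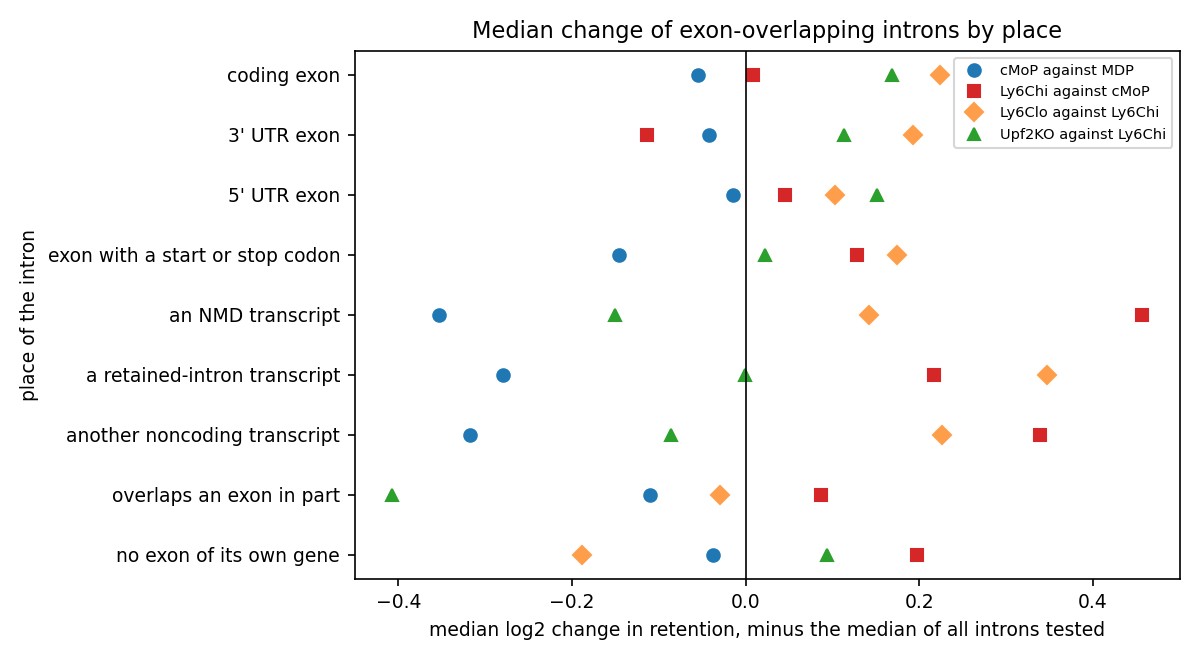
Median log2 change in retention minus the median of all introns tested (x axis) for exon-overlapping introns by place (y axis), 1 symbol per comparison, with a line at 0. Introns in decay transcripts stand at 0.46 in Ly6Chi against cMoP and at −0.15 in the knockout against Ly6Chi, and those in coding exons at 0.01 and 0.17.

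Junction choice, the number of spliced reads that join an end of the intron to another site relative to those that span it exactly, was tested in the same way over 78563 introns, 665 of them exon-overlapping. From cMoP to Ly6Chi 10 passed (1.5%), against 0.421% of all introns tested, with other junctions higher in 9 (all introns: 0.253%) and lower in 1 (0.168%). 1 of them, Apoe, differed by at least 10 percentage points: other junctions took 80.6% and 77.1% of its spliced reads in cMoP and 98.6% and 99.2% in Ly6Chi (log2 change relative to the median 4.54 ± 0.78 SE, adjusted p = 3.23e-06). The cMoP shares rest on 7 and 4 exact reads.

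The other 9 introns were in Rpl38, Dnajc19, Hnrnph1, Hnrnpa3, Pabpn1, Rpl11, Srsf1, Hmgb2 and Vmp1. Of these, Hnrnph1, Hnrnpa3 and Srsf1 encode splicing regulators and Pabpn1 the nuclear poly(A) binding protein. In Hnrnph1 other junctions took 6.64% in MDP, 7.42% and 4.42% in the cMoP pair, 13.3% and 17.9% in the Ly6Chi pair, 25.8% in the Ly6Clo library and 17.9% and 13.2% in the knockout pair. The monocyte libraries all lay above the progenitors (Ly6Chi against cMoP 1.504 ± 0.317, adjusted p = 0.000373). In Dnajc19, a mitochondrial import protein, the share was 0.257% and 0.561% in cMoP and 4.10% and 2.72% in Ly6Chi (2.90 ± 0.57, adjusted p = 0.000124). In the 196-base intron of Srsf1 it was 0.098% and 0.143% in cMoP, 0.622% and 0.980% in Ly6Chi and 0.199% and 0.127% in the knockout. Vmp1, an autophagy protein, was the 1 that fell, with no exact reads in cMoP and 4 and 10 in Ly6Chi. The count was 18 without cMoP replicate 1, 5 without Ly6Chi replicate 1 and 4 without Ly6Chi replicate 2, when 0.779%, 0.216% and 0.188% of all introns passed.

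No exon-overlapping intron passed the junction test with edgeR in the other 3 comparisons, and DESeq2 called none. Of all introns, 0.0331% passed in cMoP against MDP, 0.14% in Ly6Clo against Ly6Chi and 0.0242% in the knockout against Ly6Chi. An unadjusted p under 0.05 occurred in 12 of the 665 in cMoP against MDP (1.80%; all introns: 1.78%), 30 in Ly6Clo against Ly6Chi (4.51%; all introns: 3.17%) and 32 in the knockout against Ly6Chi (4.81%; all introns: 2.64%). The smallest p-values belonged to Cpsf6, Celf1 and Rbmx in the first, to Araf, Son and Dtymk in the second and to Zfp207, Srsf1 and Arhgap11a in the third. Of these, Araf came nearest (3.06 ± 0.77, edgeR adjusted p = 0.0776). Without cMoP replicate 1 the counts were 2, 5 and 2, when 0.112%, 0.384% and 0.118% of all introns passed. Without cMoP replicate 2 they were 0, 5 and 2, against 0.0575%, 0.383% and 0.115%.

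Of 6 gene lists, splicing factors known for poison or regulated exons held the most exon-overlapping introns, 17 in 10 of 62 genes, with mean ratios of 0.0046 to 0.987 and a median of 0.230 (all 987: 0.105). Of these 17, 5 passed a test in some comparison: 2 in Luc7l3, which overlap and share reads, and 1 each in Fubp1, Hnrnph1 and Srsf1. Of all 987, 14 passed at least 1 of the 8 tests (1.42%), and of all 95925 introns tested 719 did (0.75%). The NMD and exon junction complex list held 1 intron, in Rbm8a, a core protein of that complex, at a mean ratio of 0.0056. Leukocyte surface receptors held 6, none of which passed; among them Ccr2, the chemokine receptor of Ly6Chi monocytes, spliced a 1747-base 5′ UTR intron at ratios of 0.0147 to 0.0293 in every library, and Itga4, the integrin alpha 4 chain, had means of 0.0001 and 0.0212 in its 2 introns. The other members of the list had high mean ratios, 0.9993 in Bsg, 0.949 in Selplg, the P-selectin ligand PSGL-1, and 0.9304 in Adgre1, the macrophage antigen F4/80, and the list median was 0.476. Signalling, cytoskeleton and trafficking genes held 5, none of which passed. Sec16a, a scaffold of ER exit sites, had ratios of 0.857 in MDP, 0.882 and 0.811 in the cMoP pair, 0.654 and 0.662 in the Ly6Chi pair, 0.821 in the Ly6Clo library and 0.653 and 0.638 in the knockout pair. Both Ly6Chi and both knockout libraries lay below the others, and the difference from cMoP did not pass (−1.98 ± 0.56, edgeR adjusted p = 0.305). Chromatin and transcription genes held 4 and amino acid and stress genes 4, and none passed. Foxp1, a forkhead transcription factor, kept a 3753-base stretch of its 3′ UTR at 0.940 to 1.00. Rps9, a ribosomal protein, had mean ratios of 0.0101 and 0.0045 in its exon-overlapping introns. Of the spliced reads at their ends, 99.5% to 99.9% and 92.5% to 97.0% joined them to other sites, so few spliced these introns exactly.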

How the data were processed

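The 987 introns and the gene lists were chosen with earlier results of these data known. The submitters' processing notes name FastQC, Trimmomatic, STAR 2.5.2a and RSEM with mm10 and hg38; the program behind the intron tables is not given in the sources used here. RNA with an integrity number over 7 was sequenced as strand-specific pairs of 100 bp, per the labels' protocols. The authors deposited whole-number counts of boundary, end and exact junction reads per intron, an unscaled depth (signal) and coverage fraction over the intron, and the retention ratio (a fraction). The ratio was recomputed within 0.0001 for at least 99.9% of introns tested, using the depth, or the coverage fraction where the depth was under 1; with depth alone, 55.6% to 67.8% of introns tested and 91.3% to 97.2% of the 987 matched. The authors' deposited expression table is named for FPKM, but its columns sum to about 1000000, so its values were treated as TPM.

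Introns were placed in GENCODE M21 (GRCm38) by coordinates; sequences come from its transcripts. Some sequences are not reported here. Retention compared left plus right boundary counts with the larger end count, and junction choice compared other with exact junction counts. Each library gave 2 columns to an edgeR 4.0.16 quasi-likelihood fit (R 4.3.3) with a library term and group terms over all 8 libraries, leaving 3 residual degrees of freedom and 1 shared spread, so that MDP and Ly6Clo, with 1 library each, are assumed to vary like the other groups. Filters were 10 reads in every library; p-values were adjusted over all introns tested. Alternatives were other scaling, DESeq2 1.42.0, other read minimums, 1 boundary or end, leaving out libraries, the replicate number as a block, and fewer libraries. The fit was tested on simulated data for the knockout against Ly6Chi only, with large changes placed in introns with many reads. That simulation does not cover changes in MDP or Ly6Clo, with 1 library each, or in introns with few reads.

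Named introns were, for junction choice, those with adjusted p under 0.05 and shares differing by 10 percentage points; for retention, up to 3 per direction with the largest change whose smaller boundary count was at least 0.25 of the larger; the 3 smallest p-values where fewer than 3 passed; and up to 4 per list. Other called introns, and those inside coding exons, were added after values were seen. Counting intervals are not given, since reads without molecular identifiers are not independent molecules.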

Additional observations from a re-analysis of the deposited data

How the results depend on the processing

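The differences between exon-overlapping and clean introns kept their sign and passed under every alternative run. They were 53.6 percentage points with a ratio of at least 0.05, and 45.9 to 47.0 (retained share) and 9.87 to 10.1 (other spliced reads) without 1 library. The mark that separates the sets stayed the same throughout, so these alternatives cannot show a difference beyond that choice of sets. Counts of exon-overlapping introns passing the tests depended on the fit, and the cause was not tested. For retention in cMoP against MDP (0), the counts were 8 with both kinds of read scaled apart (all introns: 0.123%), 6 with no filter per library (all introns: 0.0451%) and 2 with DESeq2 (all introns: 0.0616%). In Ly6Chi against cMoP (6) they were 33 scaled apart (all introns: 0.665%) and 26 with no filter per library (all introns: 0.448%). They were 1 with at least 20 reads in every library (all introns: 0.0372%), 1 with the smaller boundary count (0.00423%) and 1 with only the 4 libraries compared (0.0149%). In Ly6Clo against Ly6Chi (0) they were 3 scaled apart (all introns: 0.137%), 3 with no filter per library (all introns: 0.0483%) and 1 with DESeq2 (all introns: 0.0585%). In the knockout against Ly6Chi (1) they were 7 scaled apart (0.709%, all introns: 0.687%) and 5 with no filter per library (0.507%, all introns: 0.365%). With only the 4 libraries compared they were 23 (2.33%, all introns: 1.41%). They were 0 with at least 20 reads (all introns: 0.143%), with the smaller boundary count (0.0138%) and with DESeq2 (0.187%). For junction choice in Ly6Chi against cMoP (10), 5 passed from the left end only (all introns: 0.316%), 5 from the right end only (0.241%) and 2 with DESeq2 (0.135%). In the knockout against Ly6Chi (0), 2 passed with only the 4 libraries compared (0.308%, all introns: 0.13%). Without 1 library, retention counts ranged from 0 to 137, 1 to 224, 0 to 21 and 0 to 33 in the 4 comparisons, and junction counts from 0 to 2, 4 to 18, 0 to 5 and 0 to 2. With the smaller boundary count, the change of Rpl27 in Ly6Chi against cMoP was −0.44 relative to the median of all introns and no longer passed, and Rpl38 gave no value because 1 of its boundaries had no read in any library. Replicate numbers do not show pairing: differences between replicates 2 and 1 correlated at −0.09 to 0.00 across 95786 introns between cMoP, Ly6Chi and the knockout. The replicate block on 6 libraries was an alternative chosen after seeing the data. With it, 17 exon-overlapping introns passed for retention in Ly6Chi against cMoP (all introns: 0.348%) and 2 in the knockout against Ly6Chi (0.298%). Without it, 7 and 1 passed in the same libraries (all introns: 0.109% and 0.213%). For junction choice the block gave 9 and 0 (all introns: 0.356% and 0.0179%). Depth limits introns with few reads: the Vmp1 call rests on 0 exact reads in cMoP and 4 and 10 in Ly6Chi.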
